A study of Mus musculus with 10 samples.

Results

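The expression of 8 Wnt ligands and 2 transcriptional readouts of Wnt signalling was examined in the frontonasal prominence (FNP), the swelling that builds the forehead and nose, of E10.5 mouse embryos. The members were Wnt3, Wnt4, Wnt5a, Wnt6, Wnt7b, Wnt9b, Wnt10b, Wnt11, Lef1 and Axin2, picked by symbol from a count table of 35542 genes. All 10 of these genes were found and all 10 passed the filter on low counts. The 10 libraries came from FVB/NJ embryos, 6 wild type for Smchd1 (WT, 3 labelled male and 3 female) and 4 homozygous for the MommeD1 loss-of-function allele (MD1, 2 labelled male and 2 female). No treatment was given and the mutation is constitutive, so it is present in every cell of the embryo, including tissues outside the face. The labels name separate samples but not the embryos behind them, and p-values therefore measure the spread between these samples, which may be partly technical.

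Wnt ligands are secreted lipid-modified proteins that bind Frizzled receptors. In the canonical branch, the signal spares beta-catenin from degradation, and beta-catenin then works with TCF and LEF factors to switch on targets such as Axin2, while Wnt5a and Wnt11 are known mainly for beta-catenin-independent signalling. In the face, the surface ectoderm makes several canonical ligands that act on the neural crest-derived mesenchyme below, and mice lacking Wnt9b develop cleft lip. Smchd1 is a chromatin protein that helps to silence the inactive X chromosome and several autosomal gene clusters.

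The libraries held 4195119 (MD1 male 3) to 24125084 (WT male 3) counts. Smchd1 transcripts were lower in MD1, at 246 ± 14 CPM (counts per 1e+06 counts of the scaled library; SD, n = 6) in WT and 78.6 ± 20.8 CPM (n = 4) in MD1, a log2 fold change of -1.65 (SE 0.15, edgeR adjusted p = 0.000746). A pair of MD1 libraries stood apart from the others. The first principal component (38.2% of the variance) set MD1 female 4 at -89 and the second (25.1%) set MD1 male 3 at 69.5. The library labelled MD1 female 1 held 88.2 CPM of the Y-linked gene Ddx3y, inside the range of 78.2 to 96.1 CPM of the male-labelled libraries, while the other female-labelled libraries held 0 reads. It also held 204 CPM of Xist, the RNA of the inactive X, between the values of the male-labelled and the other female-labelled libraries. Xist was at 0.596 to 2.08 CPM in the male-labelled libraries, 2590 to 2700 in the WT females and 6720 in MD1 female 4. Of the markers of the labelled tissue, all 10 of facial mesenchyme and all 12 of surface ectoderm were detected in every library.

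No member of the Wnt group passed the threshold between MD1 and WT. By edgeR's quasi-likelihood test on 15452 autosomal genes, 0 of the 10 had an adjusted p of 0.05 or less, where 12 of all genes (0.0777%, or 0.0712% higher and 0.00647% lower) did, and 0 of the 10 had an unadjusted p under 0.05, where 9.79% of all genes did. DESeq2, limma-voom and edgeR's exact test also called 0 of the 10. The estimate was higher in MD1 for 6 members and lower for 4, with a median log2 fold change of 0.22, beside a median of 0 and 7802 genes higher and 7650 lower over all genes tested. Without MD1 female 4, 3 members were higher and 7 lower and the median was -0.08, so both the tally and the median turned with that library. On the deposited log2 RPKM scale the median was 0.02, beside -0.1 over all genes. In none of the 10 did the 4 MD1 values lie wholly above or wholly below the 6 WT values, a pattern that 0.99% and 1.06% of all genes showed. Of the 40 single MD1 values in CPM, 25 lay inside the WT range, 9 above it and 6 below. The library MD1 female 4 gave 6 of the 9 above and 2 of the 6 below. On the deposited RPKM scale it lay above the WT range for 4 members (Wnt4, Wnt7b, Wnt9b and Wnt11) and below it for Wnt5a and Lef1.

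**Figure D1:**
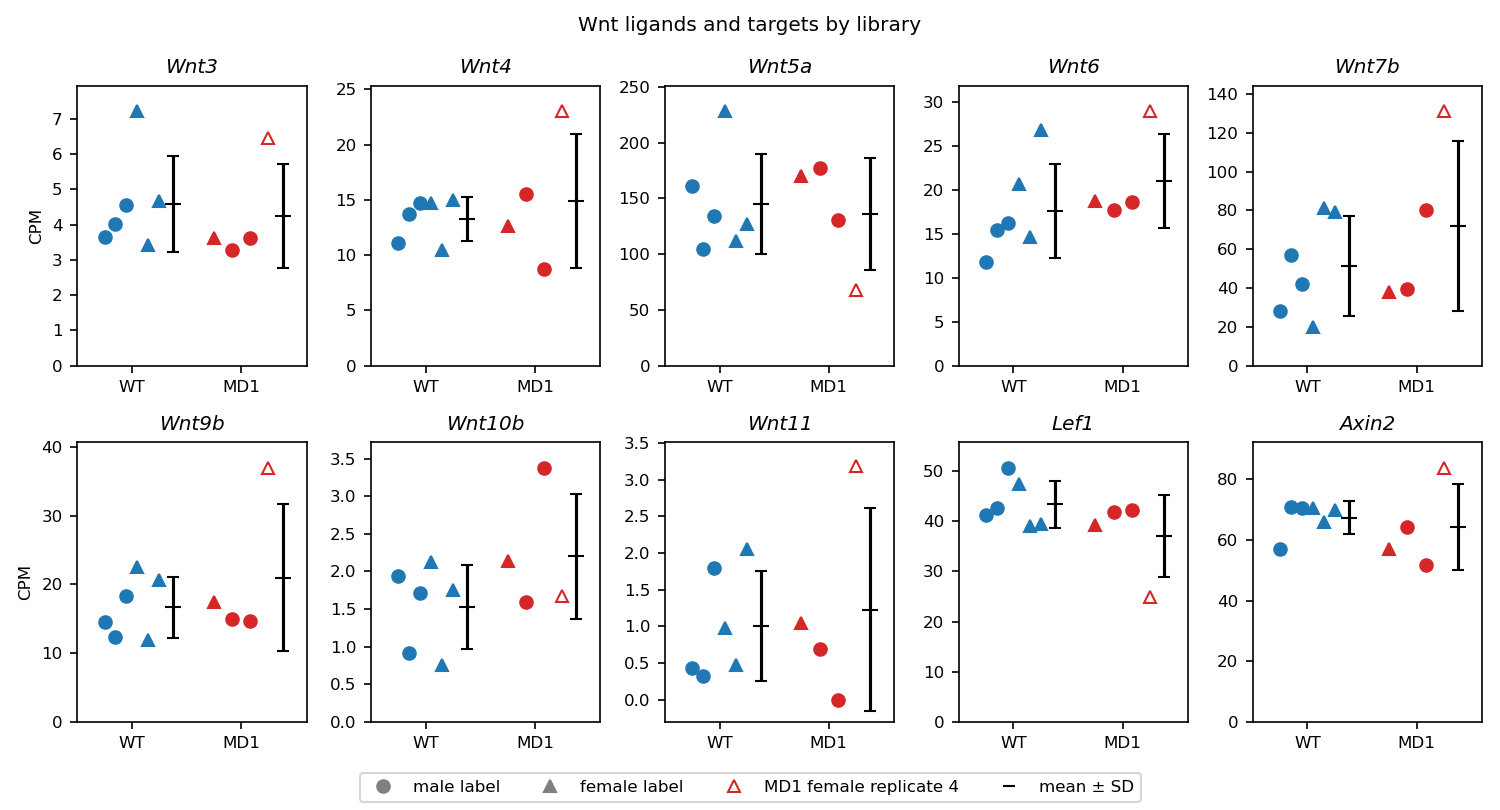
Expression of each member in CPM (vertical axes, linear) in the 6 WT (blue) and 4 MD1 (red) libraries, drawn as circles (male label) or triangles (female label), an open triangle for MD1 female 4 and black bars for the mean ± SD of each group. On this scale MD1 female 4 is the highest of the 10 libraries for 6 members (4 on the RPKM scale) and the lowest for Wnt5a and Lef1.

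The members spanned a wide range of expression per transcript length. On the deposited RPKM scale, converted from log2 to linear, Wnt5a was the most abundant in WT at 16.7 ± 5.16 (SD, n = 6). Axin2 followed at 11.1 ± 0.985, Wnt7b at 9.43 ± 4.74 and Wnt6 at 7.23 ± 2.23. Lef1 stood at 4.46 ± 0.514, Wnt9b at 3.34 ± 0.899, Wnt4 at 2.86 ± 0.453 and Wnt3 at 1.35 ± 0.404. Wnt10b and Wnt11 were the least abundant at 0.407 ± 0.148 and 0.221 ± 0.165. Between neighbours in this order, the WT libraries did not overlap for Wnt5a over Axin2 (12.3 to 26.2 against 9.21 to 11.7), Wnt4 over Wnt3 (2.23 to 3.24 against 0.988 to 2.11) and Wnt3 over Wnt10b (0.988 to 2.11 against 0.199 to 0.563). All other neighbours had overlapping ranges. In MD1 the order of the means was Wnt5a, Wnt7b, Axin2, Wnt6, Wnt9b, Lef1, Wnt4, Wnt3, Wnt10b and Wnt11.

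Wnt9b and Wnt3, canonical ligands of the facial ectoderm, lie side by side on chromosome 11 of GRCm38, Wnt9b at chr11:103727364-103749821 on the minus strand and Wnt3 at chr11:103774150-103817957 on the plus strand. The genes point away from each other across 24328 bases with 0 annotated genes between them. Wnt9b ran from 11.9 through a median of 16.4 to 22.6 CPM in WT. It was 17.4 in MD1 female 1, 15 in MD1 male 2, 14.7 in MD1 male 3 and 37 in MD1 female 4. The first 3 MD1 libraries fell inside the WT range and the last stood above it. Against WT, the log2 fold change was 0.34 (SE 0.28, 95% interval -0.26 to 0.95, adjusted p = 0.647), and it was -0.08 without MD1 female 4.

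Wnt3 ran from 3.41 through 4.29 to 7.21 CPM in WT, the highest value coming from WT female 4. The MD1 values were 3.61 (female 1), 3.29 (male 2), 3.62 (male 3) and 6.46 (female 4), of which only male 2 fell outside the WT range. The estimated log2 fold change was -0.11 (SE 0.27, 95% interval -0.68 to 0.47, adjusted p = 0.891). It was -0.40 without MD1 female 4 and 0.07 without WT female 4.

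Wnt6 (chr1:74771892-74785322, plus strand) is an ectodermal ligand that sits 6193 bases from Wnt10a on the same strand. Its WT values ran from 11.8 through 15.8 to 26.8 CPM, and the MD1 values were 18.7, 17.7, 18.6 and 28.9 in the same order of libraries. The first 3 MD1 values differed by less than the WT spread and MD1 female 4 exceeded every WT library in CPM, but not in RPKM (9.81 against a WT range of 4.8 to 11.1). The log2 fold change of 0.26 (SE 0.22, 95% interval -0.22 to 0.74, adjusted p = 0.663) was 0.06 without MD1 female 4.

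Wnt10b (chr15:98770712-98778150, minus strand), another ligand of the ectoderm, was scarce. It measured 0.757 to 2.13 CPM in WT with a median of 1.73. In MD1 it measured 2.14, 1.6, 3.38 and 1.67, so that female 1, narrowly, and male 3 exceeded the WT range. Wnt10b was the only member with its highest value in MD1 male 3, the shallowest library. For Wnt10b the log2 fold change was 0.45 (SE 0.35, 95% interval -0.30 to 1.20, adjusted p = 0.632), and 0.54 without MD1 female 4.

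Wnt4 (chr4:137277489-137299726, plus strand), known for its part in kidney and gonad formation and also made in facial ectoderm, spanned only 1.43-fold among WT libraries, with a median of 14.2 and a highest value of 15 CPM. The MD1 values spread more widely, at 12.6, 15.5, 8.7 and 23. They fell on both sides of the WT range, with male 2 and female 4 above it, male 3 below it and female 1 inside. The log2 fold change was 0.19 (SE 0.22, 95% interval -0.30 to 0.67, adjusted p = 0.75), and -0.09 without MD1 female 4.

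Wnt7b (chr15:85535437-85582473, minus strand), a ligand of the forebrain and of epithelia, varied among WT libraries more than most genes. Its WT values ran from 19.7 in WT female 4 to 81.3 in WT female 5 with a median of 49.4 CPM, a 4.12-fold range, and the SD of its log2 CPM over WT exceeded that of 98.3% of the genes tested. The MD1 values were 38, 39.3, 80 and 131, of which female 4 alone left the WT range. For Wnt7b the log2 fold change was 0.49 (SE 0.43, 95% interval -0.44 to 1.43, adjusted p = 0.667), and -0.02 without MD1 female 4. The interval spans a fold of 0.735 to 2.69, so the data leave a 2-fold increase within its bounds.

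Wnt5a (chr14:28504750-28527448, plus strand), made in facial mesenchyme and required for outgrowth of the snout and limbs, ran from 105 through 130 to 228 CPM in WT, highest in WT female 4. In MD1 it was 170, 177, 131 and 67.6. The first 3 values lay inside the WT range and MD1 female 4 lay below every other library. Its log2 fold change was -0.08 (SE 0.27, 95% interval -0.66 to 0.49, adjusted p = 0.919). The sign turned to 0.15 without MD1 female 4 and to 0.09 without WT female 4.

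Wnt11 (chr7:98835112-98855195, plus strand), a ligand of cell movement in early embryos, was at the limit of detection. The WT libraries gave 4 to 44 reads, or 0.321 through a median of 0.728 to 2.05 CPM. The MD1 libraries gave 22, 7, 0 and 42 reads, or 1.05, 0.698, 0 and 3.19 CPM. The 0 in MD1 male 3 allows up to 0.725 CPM at that depth (3 counts, counting error only), which reaches into the WT range. The log2 fold change of 0.41 had an SE of 0.67 (95% interval -1.06 to 1.87, adjusted p = 0.826) and was -0.48 without MD1 female 4.

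**Figure D2:**
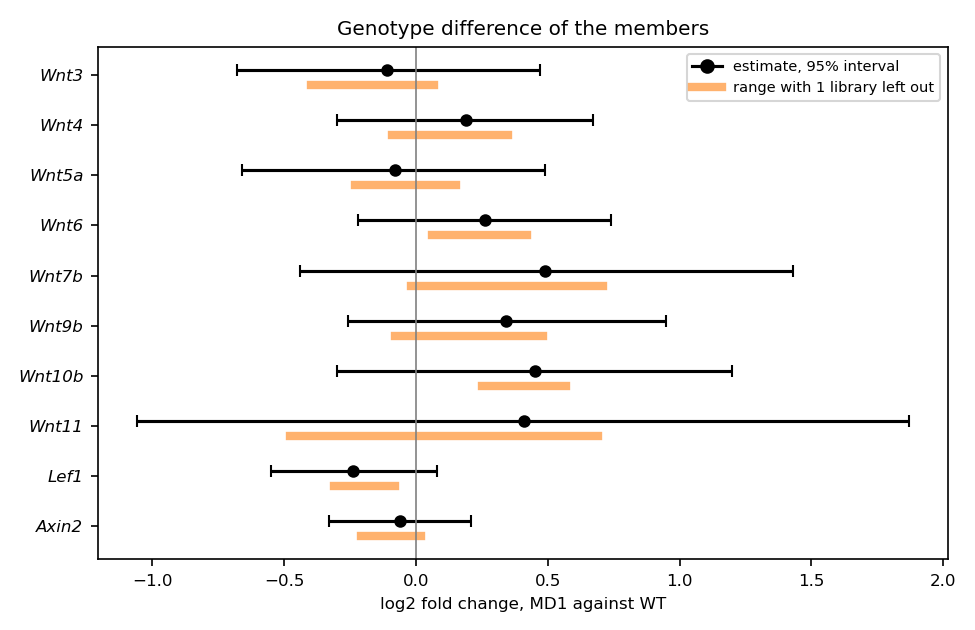
Log2 fold change of MD1 against WT for each member (black point) with its 95% interval from edgeR (black line), above the range of estimates when each of the 10 libraries was left out in turn (orange bar). Each of the 10 intervals spans 0, from the narrowest for Axin2 (-0.33 to 0.21) to the widest for Wnt11 (-1.06 to 1.87).

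The genes that read out the pathway varied less among WT libraries than the ligands did. The SD of log2 CPM over WT exceeded that of 35.8% of the genes tested for Axin2 and 48.5% for Lef1, against 68.5% (Wnt4) to 99% (Wnt11) for the 8 ligands. Low counts add sampling noise to this spread, as for Wnt11 with 4 to 44 reads. Wnt targets outside the members did not share a low spread, with 19.4% for Ccnd1 but 90.7% for Sp5. Axin2 (chr11:108920349-108950783, plus strand) encodes a scaffold of the beta-catenin destruction complex and is a widely used direct target. It ran from 57 (WT male 1) through 70.2 to 70.8 CPM in WT, and 5 of the 6 WT libraries lay between 65.9 and 70.8. The MD1 values were 57.2, 64.3, 51.7 and 83.9, with male 3 below and female 4 above the WT range. On the RPKM scale female 4 was inside it, at 11.3 against 9.21 to 11.7. Its log2 fold change was -0.06 (SE 0.12, 95% interval -0.33 to 0.21, adjusted p = 0.852), which bounds the fold between 0.793 and 1.15. Without MD1 female 4 it was -0.21, with an unadjusted p of 0.0306 and an adjusted p of 0.831 by the same edgeR test, and over all settings the adjusted p ran from 0.578 to 0.984.

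Lef1 (chr3:131110471-131224356, plus strand) encodes a DNA-binding partner of beta-catenin and is also a target of the pathway. WT values ran from 39 through 42 to 50.7 CPM. In MD1 they were 39.3, 41.9, 42.3 and 24.9, the first 3 inside the WT range and MD1 female 4 below it. The log2 fold change was -0.24 (SE 0.15, 95% interval -0.55 to 0.08, adjusted p = 0.563), or -0.08 without MD1 female 4. On the deposited log2 RPKM scale, Lef1 in that library stood -1.07 from the WT mean and Axin2 0.04. The kit that the labels name for these libraries does not distinguish RNA strands. Of the exon bases of Lef1, 13.75% are shared with the antisense gene Gm43352, and in these bases reads of both genes could not be told apart. Gm43352 held at most 390 reads in a library. The exon overlap with an antisense gene or a pseudogene was 8.8% for Wnt11, 6.61% for Wnt7b, 4.58% for Wnt5a and 3.8% for Axin2. The overlapping gene held at most 36 reads in a library for Wnt7b, 149 for Wnt5a and 129 for Axin2, with no count given for Wnt11.

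The composition of the Wnt ligands was described as the share of each in the summed RPKM of all 19 Wnt genes in the table. The sum was 66 ± 11.2 RPKM in WT (n = 6) and 71.8 ± 9.12 in MD1 (n = 4), and the 8 member ligands supplied 53.6% to 78.9% of it per library. Wnt5a had the largest mean share, 26.3% ± 10.6 in WT and 22.4% ± 11 in MD1. Wnt7b held 13.8% ± 5.45 and 16.3% ± 6.44, and Wnt6 held 10.9% ± 2.13 and 11.2% ± 0.616. The means of the 8 member shares differed between genotypes by less than the SD of each group, except for Wnt3 (2.09% ± 0.71 in WT and 1.6% ± 0.184 in MD1), whose difference exceeded the SD of MD1 alone.

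The shares varied more between single libraries than between the means of the genotypes. Wnt5a made up 42.3% of the ligand sum in WT female 4 and 7.64% in MD1 female 4, while Wnt7b made up 5.84% and 23.6%. The ratio of Wnt5a to Wnt7b CPM ran from 1.38 to 11.6 within WT and was 4.47, 4.5, 1.64 and 0.516 in MD1. WT female 4 was also low in Wnt8b, a ligand of the dorsal forebrain named here after its values were seen, at 1.42 CPM against 11.5 to 48 CPM in the other WT libraries. In MD1, Wnt8b was at 33, 22, 33.1 and 73.8 CPM in female 1, male 2, male 3 and female 4, the last above every WT library.

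**Figure D3:**
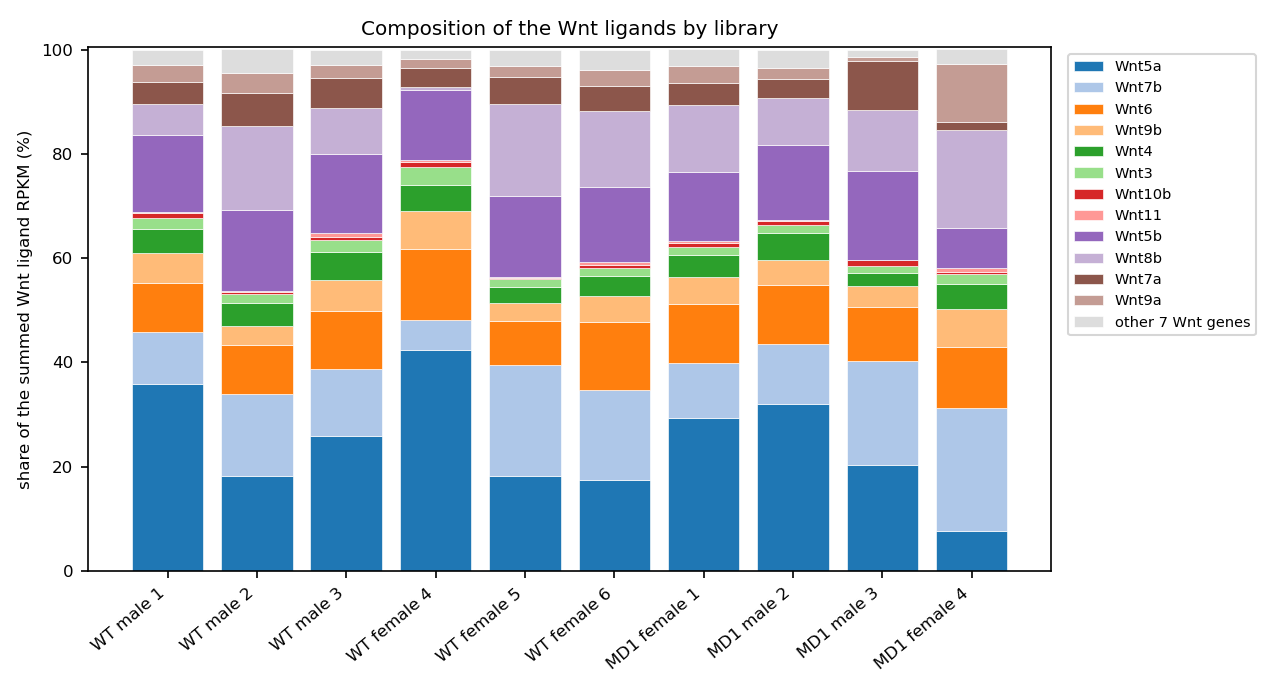
Share of each Wnt gene in the summed linear RPKM of 19 Wnt genes (vertical axis, %), 1 stacked bar per library, with the 8 member ligands at the bottom and the other ligands above. Wnt5a is the thickest band in WT female 4 (42.3%) and is thin in MD1 female 4 (7.64%).

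The tissue makeup of the libraries was read from marker lists, each as a summed CPM. In a bulk tissue, fewer cells of a type and less RNA per cell cannot be told apart. Surface ectoderm markers (12, 0 of them at 0 reads) summed to 251 to 332 CPM in WT and to 336, 295, 348 and 426 in MD1 female 1, male 2, male 3 and female 4. By the mean log2 CPM of this list, the MD1 libraries stood 0.28, 0.06, 0.13 and 0.23 from the WT mean. All of these values lay inside the WT range of -0.33 to 0.29. Facial mesenchyme markers (10, 0 at 0 reads) summed to 2100 to 2950 CPM in WT and to 1960 to 2620 in MD1. Their highest sum was in WT female 4, the library with the most Wnt5a, and the lowest in MD1 female 4, the library with the least. By the mean log2 CPM the same libraries were at the ends, at 0.32 and -0.38 from the WT mean. The markers of this list were not alike. Prrx1 was highest in WT male 3, at 366 CPM against 258 in WT female 4. Col1a1 alone had a higher estimate in MD1 (log2 fold change 0.89, edgeR adjusted p = 0.498), at 95.2 ± 15.1 CPM in WT and 175 ± 134 in MD1. Neuroepithelium markers (10) summed to 881 to 1140 CPM in WT and 941 to 1060 in MD1, with the lowest sum in WT female 4, the library with the least Wnt7b. MD1 female 4, with the most Wnt7b, had a sum of 962 CPM, inside the WT range. Hesx1 was at 0 reads in 5 libraries and Rax in WT female 4.

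MD1 female 4 also stood apart in several other lists. Erythroid markers (6, 0 at 0 reads) reached 19700 CPM there against 2910 to 4180 in WT and 2560 to 4140 in the other MD1 libraries. The 9 hypoxia response genes summed to 9990 CPM there against 1040 to 2320 in WT, with 1340 to 2420 in the other MD1 libraries and Car9 at 0 reads in MD1 male 3. Endothelial markers (5, 0 at 0 reads) summed to 555 CPM there, against 273 to 343 in WT and 294 to 367 in the other MD1 libraries. The markers of this list were not alike. The highest MD1 value was 257 CPM for Kdr and 124 for Pecam1, against WT maxima of 130 and 54.9. It was 115 for Cdh5, 28.3 for Emcn and 30.2 for Tek, against WT maxima of 105, 25.3 and 31.5. Nasal placode markers (6, 0 at 0 reads) summed to 200 CPM in MD1 female 4, inside the WT range of 190 to 270 (203 to 246 in the other MD1 libraries). The mean log2 CPM of the nasal placode markers in MD1 female 4 was -0.59 from the WT mean, below the WT libraries (-0.23 to 0.19). Yolk sac and liver markers (6, up to 4 at 0 reads) reached 322 CPM in MD1 female 1 and 84.3 in MD1 female 4, against 0.871 to 26.8 in WT and 0.483 and 0.598 in the MD1 males. The part of these differences in the Wnt values of MD1 female 4 was not tested. The values without that library are given with each member above.

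**Figure D4:**
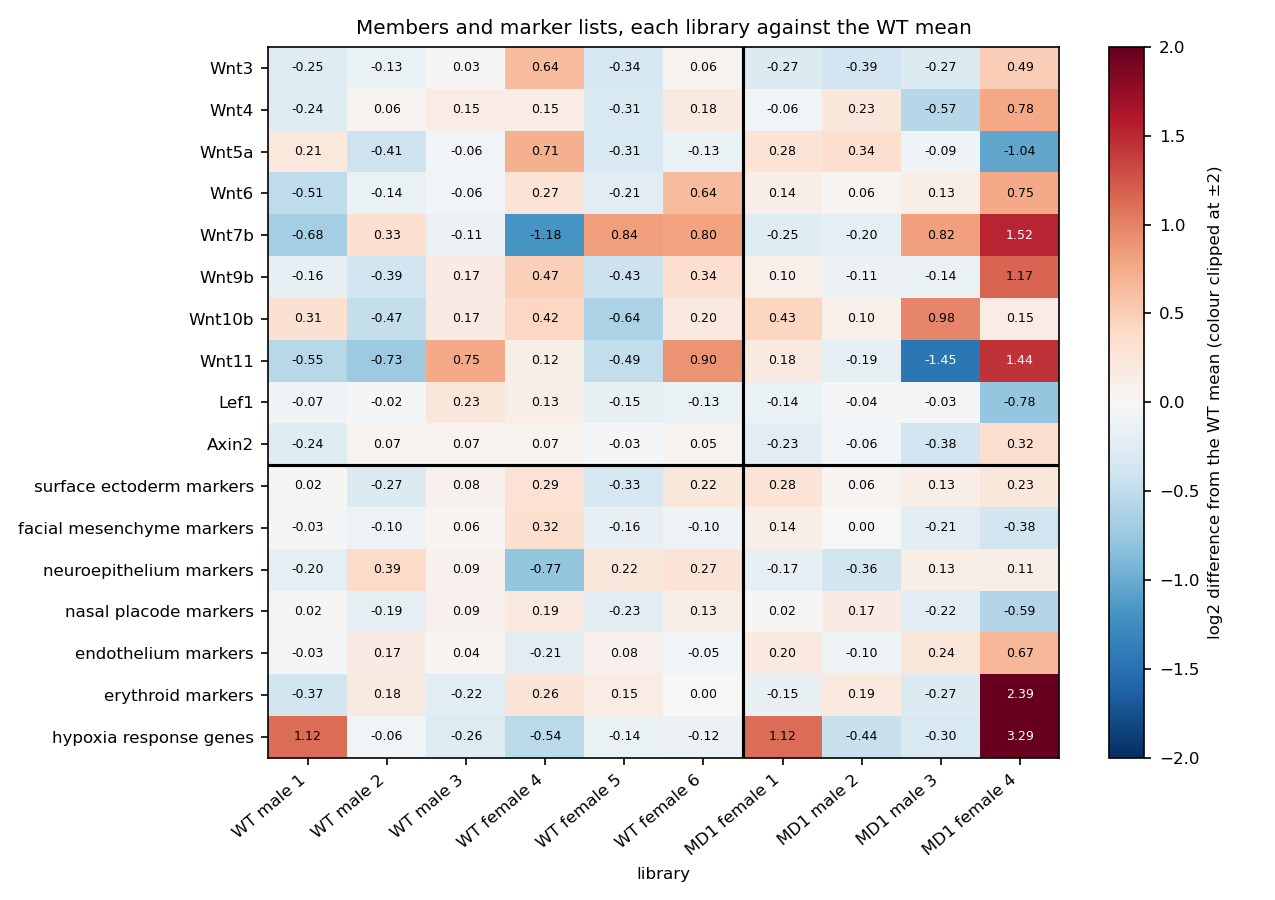
Log2 difference of each library (columns) from the WT mean for the 10 members (upper rows, CPM with 0.5 added) and for the mean log2 CPM of 7 marker lists (lower rows), in red above and blue below the WT mean, with the values printed. MD1 female 4 departs by 1.52 for Wnt7b and -1.04 for Wnt5a, beside 3.29 for the hypoxia response genes and 2.39 for erythroid markers.

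The rest of the pathway was followed in 8 lists of 84 genes by role, of which 76 were tested. Over all genes, 0 of the 76 passed the threshold, 35 had a higher estimate in MD1 and 41 a lower one, with a median log2 fold change of -0.04. These tallies and the list medians below use all 10 libraries, MD1 female 4 included. At an unadjusted p under 0.05 there were 2 higher and 2 lower, or 4 of 76, where 9.79% of all genes were below that value. The higher ones were Wls and Sp5. The lower ones were Dvl3, a cytoplasmic relay of the receptor signal (-0.23, adjusted p by edgeR 0.498, with all 4 MD1 libraries below all 6 WT ones, as 1.06% of genes showed), and Tle3, a co-repressor that binds TCF factors (-0.23, adjusted p by edgeR 0.496), both named here after their values were seen.

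Among ligands outside the member group, 7 of 11 were tested, 3 higher and 4 lower with a median of -0.04, while Wnt1, Wnt2, Wnt8a and Wnt10a were too low. Wnt5b, the most abundant of them, was at 28.8 ± 4.96 CPM in WT and 28.4 ± 6.06 in MD1. Wnt9a had the largest estimate, 1.11 (SE 0.59, adjusted p = 0.527), which rested on 41.7 CPM in MD1 female 4 against 2.42 to 8.08 in the other MD1 libraries and 3.93 to 9.8 in WT.

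Wls, the carrier that takes Wnt proteins to the cell surface, separated the groups without overlap. It measured 158 to 175 CPM in WT and 193, 185, 213 and 297 in MD1, so that all 4 MD1 libraries exceeded all 6 WT libraries, as 0.99% of genes did. The log2 fold change was 0.41 (SE 0.12), with an unadjusted p of 0.0041 and an adjusted p of 0.496 by edgeR, above the threshold. Porcn, which attaches the lipid, is X-linked and was not in this test.

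At the cell surface, all 16 receptor genes were tested, 9 higher and 7 lower with a median of 0.03. Fzd2, the most abundant, was at 233 ± 19.8 CPM in WT and 208 ± 26.7 in MD1, and Fzd9 had the largest estimate at -0.49 (adjusted p = 0.641). Of the R-spondins and their receptors, which prolong Wnt signalling, 6 of 7 were tested with a median of 0.13. Lgr4 was at 89.2 ± 11.4 and 97.8 ± 9.38 CPM, and Lgr5, itself a target in many tissues, at 17.2 ± 4.98 and 12.2 ± 8.59. Lgr5 held 21.4, 17.5, 6.77 and 3.27 CPM in MD1 female 1, male 2, male 3 and female 4. Its WT range was 11.7 to 24.2 CPM. The 15 tested antagonists of 16, which bind ligands or receptors outside the cell, were 6 higher and 9 lower with a median of -0.25. Sfrp1, which sequesters Wnt proteins, was at 276 ± 53.1 and 292 ± 31.5 CPM, and Notum, which removes the Wnt lipid, at 1.89 ± 1.08 and 1.19 ± 0.622.

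Inside the cell, 11 of 12 genes of the destruction complex and its relays were tested, 4 higher and 7 lower with a median of -0.09. Ctnnb1, which encodes beta-catenin, was at 1840 ± 45 CPM in WT and 1730 ± 176 in MD1 (-0.09, SE 0.07, adjusted p = 0.65), and Apc2 at 53.2 ± 9.43 and 38.4 ± 16.3. The 11 TCF factors, co-activators and co-repressors were 2 higher and 9 lower with a median of -0.13. Pygo2 and Bcl9l, co-activators of beta-catenin, were at 96.3 ± 2.3 and 79.1 ± 22.4 CPM and at 66.5 ± 8.1 and 51.7 ± 16.6 CPM in WT and MD1.

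The 9 further targets were 6 higher and 3 lower, with a median of 0.1. Ccnd1, a driver of the cell cycle, was at 428 ± 28.8 CPM in WT and 332 ± 152 in MD1, where MD1 female 4 held 111 CPM. Sp5, a transcription factor induced by beta-catenin, was at 1.84 ± 0.613 and 4.32 ± 5.56 CPM (1.33, SE 0.59, unadjusted p = 0.0427 and adjusted p = 0.502 by edgeR), and its MD1 female 4 value was 12.6 CPM.

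**Figure D5:**
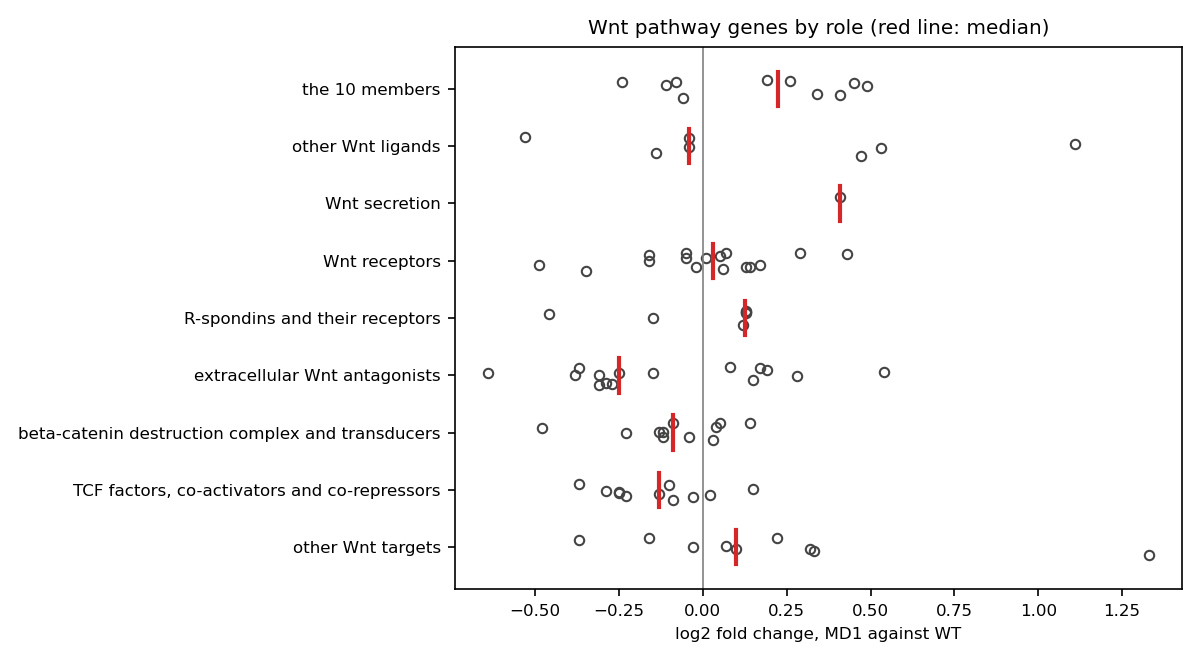
Log2 fold change of MD1 against WT (horizontal axis) of each tested gene (circles, spread vertically only for legibility) in the member group and in 8 further lists by role, with the list median as a red line. Estimates lie on both sides of 0 in every list except Wnt secretion, which holds 1 tested gene, Wls (0.41).

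The genotype difference was also estimated within each sex label, in a model of 4 groups on all chromosomes. For males (2 MD1 against 3 WT), 0 of the 10 members passed the threshold, with 0.018% of all genes called, and 0 had an unadjusted p under 0.05, with 3.95% of all genes. For females (2 against 3), 0 of the 10 passed, with 0.012% called, and 0 by the unadjusted p, with 19%. The difference between the sexes was called for 0 of the 10 and for 0% of all genes, and 0 passed by the unadjusted p, with 1745 of 16640 genes below 0.05. WT females against WT males gave 0 calls of 10, with 0.00601% of all genes, and 0 by the unadjusted p, with 1.33%. For Wnt5a the estimate was 0.22 (SE 0.38) in males and -0.39 (SE 0.38) in females, a difference of -0.61 (adjusted p = 0.64).

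The female estimates rest on MD1 female 1, which carries Y-linked reads, and on MD1 female 4. Without MD1 female 1 the single remaining MD1 female library was assumed to vary like the other groups. The difference for Wnt5a then became -1.44 (adjusted p = 0.0349 by edgeR), the only member past the threshold, in a fit that called 21% of all genes (35% by the unadjusted p). That value describes the distance of MD1 female 4 from the other libraries, and sex and library cannot be told apart in it.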

How the data were processed

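RNA was sequenced from FNP tissue of 6 WT and 4 MD1 libraries. Raw counts per gene and log2 RPKM values (the log2 of reads per kilobase, normalized to library size and transcript length) were deposited by the authors, who trimmed reads with Trim Galore 0.4.4, aligned them to GRCm38 with HISAT2 2.0.5 and counted in SeqMonk. Whether SeqMonk counted by strand was not stated. Columns of group averages were not used. Of 35591 rows, 49 with a repeated identifier were dropped. The filterByExpr function kept 15982 genes, whose counts were TMM-scaled and tested by quasi-likelihood (edgeR 4.0.16, R 4.3.3) without covariates on the 15452 autosomal ones, with Benjamini-Hochberg adjustment over all of them. CPM are per 1e+06 of TMM-scaled counts. Linear RPKM served for levels between genes. Exons came from GENCODE M21, where all members had the same start and end. The 45 library pairs differed by more than sampling noise, with a chi-square per degree of freedom of at least 3.92. The scripts were tested on simulated data.

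Members and gene lists were chosen with earlier results of these data known. Genes outside the members were named by a rule, the most abundant and the most different tested gene of each role list, except where the text says that a gene was named after its values were seen. Groups came from the labels. Alternatives were the scaling, the filter, DESeq2 1.42.0, limma 3.58.1, the exact test, the sex label, the replicate block and leaving out libraries.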

Additional observations from a re-analysis of the deposited data

Results flagged for a closer look

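In 20 groups of values (10 members in WT and in MD1), the most extreme library was compared with the spread of its group by Dixon's criterion, which chance alone passes in about 1 group of 20, and 5 passed. In WT, Wnt3 reached 7.21 CPM in WT female 4, and Axin2 stood low at 57 CPM in WT male 1. The other 3 concerned MD1 female 4, with 6.46 CPM of Wnt3, 28.9 CPM of Wnt6 and 37 CPM of Wnt9b. These 3 ligands of the ectoderm come from 1 library and are not independent of each other. The criterion was applied to CPM only, and whether the flags hold in RPKM was not tested. In RPKM, Wnt3 in MD1 female 4 was 1.56, against 0.959 to 1.07 in the other MD1 libraries. Wnt6 there was 9.81 against 7.22 to 7.73, and Wnt9b was 6.09 against 2.88 to 3.48. Axin2 in WT male 1 was 9.21 RPKM, against 10.7 to 11.7 in the other WT libraries.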

How the results depend on the processing

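In all 23 alternative settings (10 leaving out a library and 13 others) 0 members and 0 of the other pathway genes were called. The labels give both genotypes the replicate numbers 1 to 4, but the deviations of same-numbered libraries correlated at 0.00, -0.07, 0.05 and -0.12. These values gave no sign that the numbers pair the samples, but they cannot exclude a shared litter or batch. With the replicate number as a block, 0 members and 0 of all genes were called (Wnt6 had an unadjusted p of 0.043). For all genes, 12 calls became 51 with DESeq2, 30 with the exact test, 4 with limma on log2 RPKM, 6 without both MD1 female libraries and 4 with male libraries alone. They ranged from 4 (without WT male 2 or MD1 female 1) to 13 (without MD1 female 4) with 1 library left out. The cause was not tested.

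Scaling did not turn the sign of a member. Without both MD1 female libraries, the log2 fold change was -0.08 for Wnt4, 0.11 for Wnt5a, -0.17 for Wnt9b and -1.14 for Wnt11. With male libraries alone it was -0.08 for Wnt4, 0.23 for Wnt5a and -0.02 for Wnt9b, and Wnt11 was not tested. With 1 library left out, the range was -0.40 to 0.07 for Wnt3, -0.09 to 0.35 for Wnt4, -0.23 to 0.15 for Wnt5a, -0.02 to 0.71 for Wnt7b, -0.08 to 0.48 for Wnt9b, -0.48 to 0.69 for Wnt11 and -0.21 to 0.02 for Axin2. The ranges of Wnt6 (0.06 to 0.42), Wnt10b (0.25 to 0.57) and Lef1 (-0.31 to -0.08) did not cross 0. The sex difference of Wnt6 turned from -0.12 to 0.17 without MD1 female 1. MD1 male 3, the shallowest library, held 15 reads of Wnt3, 14 of Wnt10b and 0 of Wnt11.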

Other observations

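The neighbouring genes Wnt9b and Wnt3 kept a closer ratio to each other than Wnt5a did to Wnt7b. This comparison was chosen after the values were seen, and no test was made of it. The ratio of Wnt9b to Wnt3 CPM was 3.96, 3.05 and 4.01 in the WT males, 3.13, 3.49 and 4.4 in the WT females, and 4.82, 4.56, 4.06 and 5.73 in MD1 female 1, male 2, male 3 and female 4. MD1 female 4 gave the highest ratio, and MD1 male 3 lay inside the WT range while the other 3 MD1 libraries exceeded it.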
